A study of Callithrix jacchus with 3 samples.

Results

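The genes described here build the chromosome structure of meiotic prophase, together with the enzyme that cuts DNA within it. They were the structural genes SYCP1, SYCP2, HORMAD1 and TEX12 and the break-making enzyme gene SPO11. They were taken by symbol from the protein-coding entries of RNA-seq of the testis of Callithrix jacchus, the common marmoset, a small monkey of the New World, and entries of 1 symbol were summed. All 5 genes had an entry, among 12199 protein-coding symbols in all. The RNA-seq sample was wild-type adult testis, frozen after dissection. Its label gives 2 replicates and animals aged 41 and 51 months, and the table holds 1 column of values for both. How the replicates were combined is not given in the sources used here. The values therefore carry no replicate error, no test was possible, and the animals cannot be compared. The series also holds total small RNA and small RNA bound to the PIWI protein MARWI, which were not used here.

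In meiotic prophase, each chromosome folds its chromatin into loops along a protein axis, and the axes of paired homologues are then joined by the synaptonemal complex. SYCP2 is part of the axis, called the lateral element once the homologues have joined. SYCP1 forms the transverse filaments that bridge the gap, and TEX12 belongs to the central element between them. HORMAD1 sits on axes that are not yet joined and promotes break formation and homologue pairing. SPO11, a relative of topoisomerases, makes the double-strand breaks from which crossovers arise.

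The structural genes were expressed at high levels and the break-making enzyme at a low one. The unit throughout is RPKM, a read density scaled to transcript length and to library size, so levels of different genes can be set side by side. TEX12 had a level of 171 RPKM. HORMAD1 had 65.3 RPKM, SYCP2 had 59.2 RPKM and SYCP1 had 49.9 RPKM. SPO11 had a level of 0.522 RPKM. The median level of all protein-coding genes was 2.44 RPKM, so the structural genes lay above the middle of the table and SPO11 below it. In whole testis, fewer cells of a type and less RNA per cell cannot be told apart, and this holds for every level given here.

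**Figure D1:**
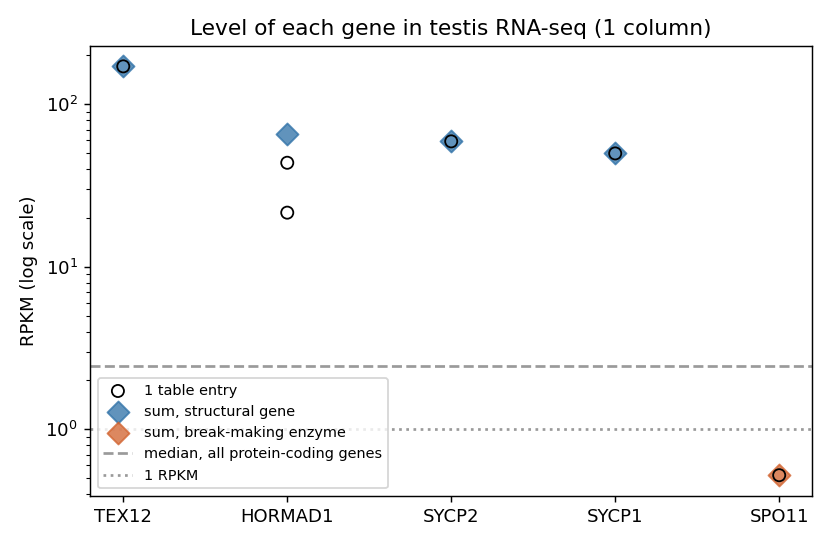
RPKM of each gene on a log axis, with open circles for single table entries, filled diamonds for the sum per gene, a dashed line at the median of all protein-coding genes and a dotted line at 1 RPKM. The 4 structural genes lie between 49.9 and 171 RPKM, and SPO11 lies at 0.522 RPKM, under both lines.

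Relative to SPO11, the level of SYCP1 was 95.5 times as high, that of SYCP2 113 times, that of HORMAD1 125 times and that of TEX12 328 times. The median of the 4 structural genes, 62.2 RPKM, was 119 times the SPO11 level, and 41.5 times with 1 RPKM added to each level. All 4 structural genes were at 10 times the SPO11 level or more, against 34.9% of all protein-coding genes. SPO11 sets this limit and could not reach it. The same 4 genes were at or above 1 RPKM, a limit reached by 63.8% of protein-coding genes, and SPO11 was under it. A limit of 5 RPKM was reached by the same 4 genes and by 35.9% of protein-coding genes, and one of 0.1 RPKM by all 5 and by 88.5%. The depth behind the values is unknown, so the precision of a level as low as that of SPO11 cannot be given. Of all protein-coding genes, 27.6% were below the SPO11 level, and the lowest single entry of any kind was at 0.000844 RPKM. Neither value shows how well the SPO11 level was measured.

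Ranked against all protein-coding genes, the structural genes were close to the top. TEX12 was the gene with rank 81 from the top, with 99.3% of genes below it. HORMAD1 had rank 277, SYCP2 had rank 325 and SYCP1 had rank 421. Only 3.45% of protein-coding genes were at or above the level of SYCP1, the lowest of the structural genes. SPO11 had rank 8838, with 27.6% of genes below it and 72.4% above.

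**Figure D2:**
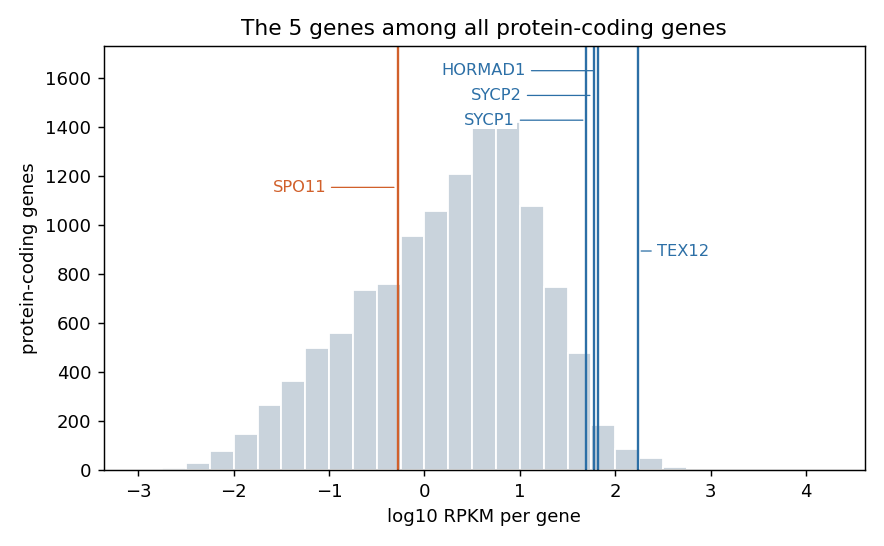
Number of protein-coding genes in steps of log10 RPKM (bars), with the level of each of the 5 genes as a vertical line. The structural genes stand in the upper tail, with SYCP1 above 96.5% of genes and TEX12 above 99.3%, whereas SPO11 stands in the lower flank, above 27.6%.

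Within the structural genes, TEX12 stood apart and the remaining ones were close together. The TEX12 level was 2.62 times that of HORMAD1, the next highest. HORMAD1, SYCP2 and SYCP1 spanned 1.31-fold from highest to lowest. Without a replicate spread, the order of these genes cannot be told from equal levels. It also rested on the summing of entries. HORMAD1 was the only one of the 5 genes with 2 entries, at 43.7 and 21.6 RPKM, which differed by 101 bases at one end of the gene and by 9 bases at the other. With the higher entry alone, HORMAD1 was the lowest structural gene, below SYCP1. How the authors divided reads between overlapping entries is not given in the sources used here.

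The genes differed widely in the stretch of genome they occupy, and coordinates are given as in the deposited table, whose genome build is not given in the sources used here. TEX12 lay on chromosome 11 from 9682054 to 9683640, on the plus strand, and its entry spanned 1587 bases. HORMAD1 lay on chromosome 18, on the minus strand, from 4682477 to 4705854. SYCP2 lay on chromosome 5 from 53847156 to 53931065, on the minus strand, and spanned 83.9 kb. SYCP1, the longest, lay on chromosome 7 from 150929321 to 151046112, on the plus strand, and spanned 116.8 kb. SPO11 lay on chromosome 5 from 51299803 to 51313693, on the plus strand, and spanned 13.9 kb. No other entry of the table overlapped any of these spans, and the table gives no exons.

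TEX12, the highest of the structural genes, had the shortest span, and the span of SPO11 lay between those of TEX12 and HORMAD1. Among genes with a span within 2-fold of its own, a comparison chosen after the data were seen, TEX12 was above 98.3%, HORMAD1 above 98.1%, SYCP2 above 97.9% and SYCP1 above 97.0%. SPO11 was above 28.1% of the genes of like span. The median level of genes of like span was 1.08 RPKM for TEX12, 2.37 RPKM for SPO11 and 3.03 RPKM for SYCP1. The places of the 5 genes among genes of like span were thus close to their places among all genes.

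Genes of the same pathway were then read by role, from 8 lists that held 78 genes of meiotic prophase. Of these, 41 had an entry under a known name, and 39 of the 41 were at or above 1 RPKM, against 63.8% of all protein-coding genes. Those under 1 RPKM were SPO11 and STRA8. Of the 36 genes other than the 5 described above, 35 were above the SPO11 level, against 72.4% of all protein-coding genes. At or above the SYCP1 level were 2 of them, against 3.45%, a count too small to stand clear of that share. The median of the 36 was 8.84 RPKM. The lists were drawn up with earlier results of these data known, so their counts are descriptions.

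Synaptonemal complex proteins were listed first, and 4 of 10 had an entry, with a median of 54.5 RPKM. All 4 were at or above 1 RPKM, against 63.8% of all protein-coding genes. SYCP1, SYCP2 and TEX12 were among them, so count and median largely repeat their levels. The one beside SYCP1, SYCP2 and TEX12 was SYCE2, the central element protein that assembles with TEX12. SYCE2 was at 6.23 RPKM, so the TEX12 level was 27.5 times that of its partner. Both levels come from 1 entry each. SYCP3, the partner of SYCP2 in the lateral element, and SYCE1 and SYCE3 of the central element were found under no name in the table and are not analysed here.

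Proteins of the meiotic axis and its cohesin rings, which hold sister chromatids together at the loop bases, were intermediate. Of 12 listed, 7 had an entry, with a median of 22.7 RPKM. All 7 were at or above 1 RPKM, against 63.8% of all protein-coding genes. HORMAD1 was the highest, at 2.88 times the level of its relative HORMAD2, which had 22.7 RPKM. The HORMAD1 level is the sum of 2 entries, the higher at 43.7 RPKM, and that of HORMAD2 comes from 1. STAG3, a meiosis-specific cohesin subunit, was at 40.2 RPKM, and SMC1B, another, was at 26.997 RPKM. The meiotic kleisin REC8, which closes the ring, was lower at 5.55 RPKM. STAG1, the counterpart of STAG3 in dividing somatic cells, was at 13.8 RPKM, so the STAG3 level was 2.90 times that of STAG1. The STAG1 level is the sum of 2 entries, and that of STAG3 comes from 1. The lowest of the list was ANKRD31, an axis-bound protein needed for timely breaks, at 2.26 RPKM. REC8, STAG1 and ANKRD31 were named after their values were seen.

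The break-making genes had the lowest median of the 8 meiotic lists, and SPO11 was the lowest gene among them. Without SPO11 the median was 3.94 RPKM, above the 3.88 RPKM of the strand exchange list, so the lowest place rested on SPO11. Of 8 listed, 5 had an entry, with a median of 3.74 RPKM, above the 2.44 RPKM of all protein-coding genes. At or above 1 RPKM were 4 of the 5, against 63.8% of all protein-coding genes. TOP6BL, the subunit that acts with SPO11 in the cutting complex, was at 1.35 RPKM, or 2.59 times the SPO11 level. MEI1, which is required for break formation, was at 3.74 RPKM. ZCWPW1, a reader of the histone marks that PRDM9 places at hotspots, was at 4.14 RPKM. IHO1, which binds HORMAD1 and recruits the break machinery to the axis, was the highest at 5.89 RPKM. IHO1 was 11.3 times as high as SPO11. Of the 4 genes other than SPO11, it was the only one at 10 times the SPO11 level or more, which 34.9% of all protein-coding genes reached. With so few genes, neither count stands clear of its share over all genes. None of the 5 reached the level of SYCP1, and the highest of them was below all 4 structural genes.

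**Figure D3:**
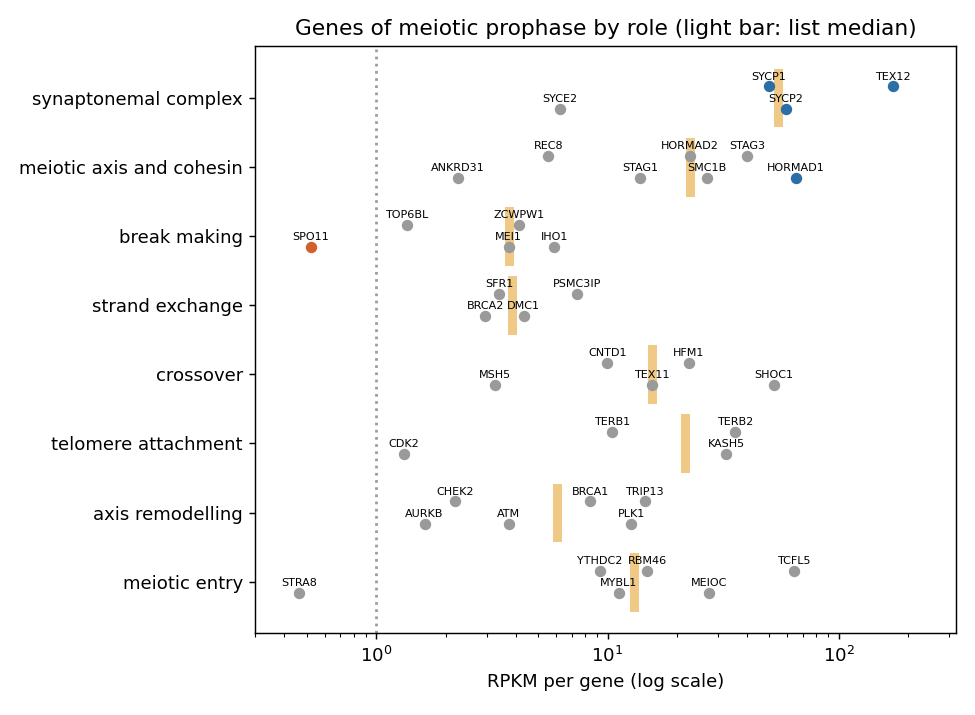
RPKM per gene on a log axis for 8 lists of meiotic genes, with structural genes of the 5 in blue, SPO11 in orange, other genes in grey, a light bar at each list's median and a dotted line at 1 RPKM. The synaptonemal complex list, which holds SYCP1, SYCP2 and TEX12 themselves, has the highest median, 54.5 RPKM. Its only other gene, SYCE2, lies at 6.23 RPKM. The break-making list, which holds SPO11 itself, has the lowest median, 3.74 RPKM. SPO11 and STRA8 are the genes left of 1 RPKM.

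Strand exchange genes, which act on the breaks after SPO11, were near the break-making list in level and below all 4 structural genes. Of 12 strand exchange genes, 4 had an entry, with a median of 3.88 RPKM. DMC1, the meiotic recombinase that coats the cut ends, was at 4.35 RPKM, or 8.32 times the SPO11 level. The DMC1 level is the sum of 2 entries, and that of SPO11 comes from 1. PSMC3IP, an accessory factor of DMC1, was at 7.40 RPKM, SFR1, a partner of recombinase loading, at 3.41 RPKM and BRCA2, the recombinase loader, at 2.96 RPKM. Crossover genes had a higher median, 15.5 RPKM over the 5 of 13 with an entry. They ranged from 3.25 RPKM to 52.5 RPKM, so the levels of the crossover and strand exchange lists overlapped. SHOC1, which promotes crossovers, was at 52.5 RPKM, close to SYCP1. The helicase HFM1 was at 22.5 RPKM, the crossover protein TEX11 at 15.5 RPKM and the cyclin-like CNTD1 at 9.99 RPKM.

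Telomeres anchor the axes to the nuclear envelope while homologues find each other. Of 7 genes listed for this attachment, 4 had an entry, with a median of 21.6 RPKM. TERB2 was at 35.6 RPKM, KASH5, which links telomeres to the motors outside the nucleus, at 32.7 RPKM and TERB1 at 10.4 RPKM. CDK2, a kinase found at telomeres and in dividing cells, was at 1.32 RPKM. Of 9 genes that remodel or survey the axis, 6 had an entry, with a median of 6.08 RPKM. TRIP13, the ATPase that removes HORMAD1 from joined axes, was the highest at 14.5 RPKM, below HORMAD1 itself. The kinase PLK1 was at 12.7 RPKM, the DNA repair protein BRCA1 at 8.42 RPKM and ATM, the kinase that limits SPO11 cutting, at 3.73 RPKM.

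Regulators of meiotic entry and prophase ranged from 0.463 RPKM to 63.7 RPKM. Of 7 listed, 6 had an entry, with a median of 13.03 RPKM. STRA8, which starts meiosis in response to retinoic acid, was at 0.463 RPKM, close to SPO11. TCFL5, a transcription factor of spermatocytes, was at 63.7 RPKM, close to HORMAD1. MEIOC, which keeps cells in prophase, was at 27.5 RPKM, the RNA-binding protein RBM46 at 14.8 RPKM and MYBL1, a transcription factor of pachytene spermatocytes, at 11.2 RPKM.

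Markers of testis cell types, pachytene spermatocytes among them, give the setting of these levels. Spermatid markers had the highest median, 479.7 RPKM over the 7 of 10 with an entry, with PRM1 at 7177 RPKM and TNP1 at 1678 RPKM. They ranged down to 40.8 RPKM. At or above the level of SYCP1, the lowest structural gene, were 4 of the 7, against 3.45% of all protein-coding genes. Pachytene spermatocyte markers had a median of 61.3 RPKM over 6 of 10, beside the structural median of 62.2 RPKM, with a range from 0.350 RPKM to 183 RPKM, led by PGK2, and with LDHC next at 114 RPKM. Spermatogonial markers had a median of 0.832 RPKM over 4 of 10 and ranged from 0.290 RPKM to 7.60 RPKM, led by DMRT1, with GFRA1 next at 0.854 RPKM. The SPO11 level was under that of every spermatid and Leydig cell marker with an entry, and under that of the peritubular marker ACTA2. It fell within the ranges of the spermatogonial and pachytene lists and of the Sertoli cell and macrophage lists given next. Of Leydig cell markers, 4 of 7 had an entry, from 4.91 RPKM to 404 RPKM, led by INSL3 and then HSD17B3 at 21.9 RPKM. Of Sertoli cell markers, 5 of 10 had an entry, from 0.0104 RPKM to 27.7 RPKM, led by CLDN11 and then WT1 at 3.68 RPKM. ACTA2 of peritubular cells, the 1 of 6 markers of that list with an entry, was at 19.4 RPKM. Macrophage markers, with 3 of 5 found, ranged from 0.393 RPKM to 2.13 RPKM, led by CD163 and then CD68 at 0.913 RPKM. The part of cell type shares in the levels of the 5 genes was not tested.

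The genes around the 5 loci were compared next, since SPO11 and SYCP2 lie on the same chromosome, 2.53 Mb apart. The SYCP2 level was 113 times that of SPO11. Between them lay 16 named protein-coding genes with an entry, where a name can be a LOC number or a UniProt entry name. Of these, 12 were at or above 1 RPKM, against 63.8% of all protein-coding genes, and the median of the 16 was 9.72 RPKM. The same number, 12, were above SPO11, against 72.4% of all protein-coding genes, and 2 were above SYCP2, against 2.66%. The counts at 1 RPKM and at the SPO11 level are near the shares over all genes and say nothing particular about the stretch. The count above SYCP2 was higher than its share but rests on 2 genes and was not tested. Of these 2, LOC100408144, at 69.2 RPKM, is known here only by its LOC number.

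**Figure D4:**
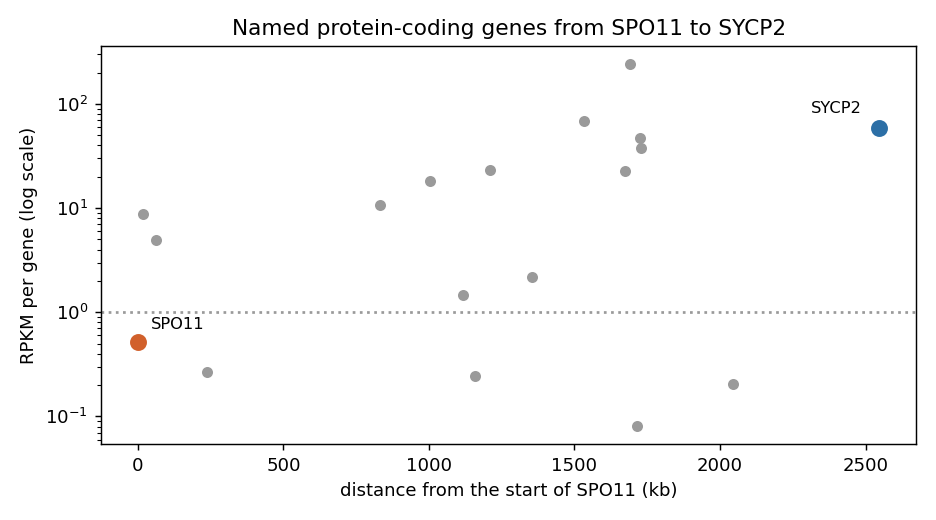
RPKM on a log axis of the named protein-coding genes from SPO11 to SYCP2, by distance in kb from the start of SPO11, with a dotted line at 1 RPKM. SPO11 lies at 0.522 RPKM and SYCP2 at 59.2 RPKM, and 12 of the 16 genes between them are above 1 RPKM.

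Within 100 kb of each span, each structural gene was above every named protein-coding neighbour with an entry, as it was above at least 96.5% of all protein-coding genes. SYCP2 was 88.6 times as high as PPP1R3D, the higher of its 2 neighbours, and FAM217B, the other, had 0.113 RPKM in all. SYCP1 was 10.96 times as high as TSHB, the highest of its 3 neighbours. TEX12 was 8.60 times as high as LOC100413592, the highest of its 5 neighbours, which is known here only by its LOC number. HORMAD1 was 4.17 times as high as GOLPH3L, the highest of its 5. Of the 3 neighbours of SPO11, 2 were above it, against 72.4% of all protein-coding genes. RAE1, a nuclear pore protein whose entry starts 5.40 kb beyond the end of SPO11 on the same strand, was at 8.76 RPKM, 16.8 times the SPO11 level. RBM38 was at 4.95 RPKM, and BMP7, a signalling protein, was at 0.519 RPKM, the level of SPO11. These neighbours were named after their values were seen.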

How the data were processed

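RNA-seq libraries were made from total testis RNA with a directional mRNA protocol, per the labels' protocols, and Bowtie, TopHat and Cufflinks are listed in the submitters' processing notes, with neither version nor role. The deposited values are RPKM per transcript, in 1 column, with no counts. For genome build, transcript lengths and depth, the value is not given in the sources used here, so no interval can be computed. Of 18365 entries, 8888 carried a symbol or protein name, 6593 were named from LOC numbers with RefSeq genes (assembly calJac240_pri, its names only), 48 through the Ensembl gene table, 506 LOC numbers were unmatched and 2330 had no name. Genes named only in the form of a UniProt entry were matched by symbol for the lists, and older symbols were accepted. Unmatched LOC numbers were kept as names. A missing name does not show that a gene is unexpressed. Protein-coding entries were summed per symbol. Ranks are the percentage of symbols with a lower value. Summing and ranking were tested on simulated data. The 5 genes and the gene lists were chosen with earlier results of these data known. Named genes were the 5, the 4 highest of each list and those under 1 RPKM, and the 2 highest of each marker list, and others are marked as chosen after their values were seen. With 1 column, no genes of like pattern could be sought. Alternatives were the highest entry in place of the sum, all biotypes, the table's own names, pseudocounts of 1 and 0.1, limits of 0.1 and 5 RPKM, and other backgrounds for ranks. Small RNA reads were not matched to these genes, because no nucleotide sequence of the species was at hand. Values were computed with pandas 2.3.3 and numpy 2.4.6 in Python 3.11.15 and drawn with matplotlib 3.10.9.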

Additional observations from a re-analysis of the deposited data

How the results depend on the processing

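The structural median stayed above SPO11 under every alternative run. Its ratio of 119 was 104 with the highest entry per symbol, 113 with the table's own names (which leave out HORMAD1), 100.1 with 0.1 RPKM added to each level, 41.5 with 1 RPKM added and 165 with the mean in place of the median. It did not move with all biotypes. The number of the 5 genes past the limit was 5 at 0.1 RPKM and 4 at 5 RPKM. Of the 41 pathway genes with an entry, 41 and 27 were past these limits, against 39 at 1 RPKM. Over all protein-coding genes, the shares were 88.5% at 0.1 RPKM, 63.8% at 1 RPKM and 35.9% at 5 RPKM. Of the 5 break-making genes with an entry, 1 remained at or above 5 RPKM, too few genes to stand clear of that share. Over the other backgrounds and sums, 94.6% to 97.4% of genes lay below SYCP1, 96.3% to 98.1% below HORMAD1 and 27.4% to 28.4% below SPO11. For SPO11, a background of genes at or above 1 RPKM gives no value. The planned matching of small RNA reads was not run. No paired analysis was possible because each dataset is 1 column of values. The depth is unknown, so no interval can be given for a low level such as that of SPO11.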

Other observations

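TSHB, the beta subunit of the pituitary hormone thyrotropin, had an entry at 4.55 RPKM in the testis. Its entry begins 60.7 kb beyond the end of SYCP1 on the same strand, and the deposited table gives both genes 1 shared locus identifier. HORMAD1 shares a locus identifier in the same way with GOLPH3L, a Golgi protein at 15.6 RPKM, whose nearer entry ends 1.22 kb from HORMAD1 on the same strand. TEX12, SYCP2 and SPO11 share theirs with no other named gene.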
